A study of Homo sapiens with 3 samples.

Results

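Long intergenic noncoding RNAs, called lincRNAs, were examined in A375, an established human melanoma cell line. The genes described are those with the deposited biotype lincRNA that were selected on a mean raw count of at least 50 over the libraries, which left 229 of the 7539 lincRNA genes and of the 58037 genes listed. A further 3153 lincRNA genes had some count but fell under that mean, and 4157 had none. Because the mean raw count chose them, the level of these genes is a description, and 25 of the 229 passed only through their highest library, since the other 2 libraries averaged under 50. Of the genes named below these are AC083843.1, CTD-2130O13.1, MIR34A, RP1-140K8.5, SUCLG2-AS1, LINC00342, RP13-463N16.6, RP11-93G5.1, LINC01021, CTC-338M12.9, LINC00383 and LINC01537. All 229 had at least 13 counts in every library.

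The study asked how material released by fat cells of young and of old skin acts on melanoma cells. A375 cells were kept in serum-free DMEM (control) or received the secretome of young adipocytes (YA-A375) or of old adipocytes (OA-A375), with 1 library per group. The secretome was serum-free medium conditioned by adipocytes that had been differentiated in culture, with insulin, dexamethasone, indomethacin and IBMX, from preadipocytes of human skin. The exposure is given as 24 h for the series, while the protocol text allows a longer one as well. All groups therefore share the cell line and the serum-free base medium, and the control received no adipocyte product at all. No group had a second library, so no difference could be checked against replicates and no p-value was computed. Each fold compares 2 libraries rather than 2 conditions, and its 95% Clopper-Pearson interval covers counting error only.

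A lincRNA gene is transcribed by RNA polymerase II, and its RNA is usually spliced, capped and polyadenylated like an mRNA, but it holds no long open reading frame. Some lincRNAs act as RNA, as scaffolds of nuclear bodies or as binding sites for proteins. Others matter mainly as carriers, because microRNAs or small nucleolar RNAs (snoRNAs) are cut out of their introns or exons, or mark the activity of an enhancer or promoter beside a coding gene. lincRNAs are on average expressed at lower levels and in fewer cell types than coding genes, and several are known for being turned on by stress, by p53 or by cAMP.

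The small RNAs that these genes carry show what the deposited counts do and do not measure. Inside 17 of the 229 genes lie 28 microRNA genes, and inside 5 lie 5 snoRNA genes. The libraries were poly(A)-selected, so the counts are of the host RNA and not of the mature microRNA. The mature sequences below, from RefSeq on GRCh38.p14, are a selection made after the values were seen. They come from some hosts whose counts differed between libraries and from some whose microRNAs share a seed. The seed is the stretch from base 2 to base 8 that pairs with target mRNAs and is given in capitals. Others of both kinds are not shown, such as miR-4527 of CTD-2130O13.1, or miR-30a and miR-30c of LINC00472, which share a seed.
hsa-miR-22-3p: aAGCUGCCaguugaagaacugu
hsa-miR-23a-3p: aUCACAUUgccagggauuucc
hsa-miR-27a-3p: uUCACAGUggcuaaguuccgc
hsa-miR-24-3p: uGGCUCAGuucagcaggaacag
hsa-miR-34a-5p: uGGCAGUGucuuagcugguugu
hsa-let-7c-5p: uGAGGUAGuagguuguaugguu
hsa-let-7i-5p: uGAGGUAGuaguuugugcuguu
hsa-miR-221-3p: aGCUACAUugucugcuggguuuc
hsa-miR-222-3p: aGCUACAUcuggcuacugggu
The 3 microRNAs miR-23a, miR-27a and miR-24 have 3 different seeds although they are cut from 1 host. By contrast miR-221 and miR-222 share the seed GCUACAU and also their host, while let-7c and let-7i share the seed GAGGUAG and come from different hosts, MIR99AHG and RP11-631N16.2.

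Promoters, taken as the 250 bases before to 50 bases after the RefSeq start, were matched for 116 of the 229 genes. The letters TGANTCA, to which AP-1 (the FOS and JUN dimer) is known to bind, were searched on both strands and found in 11 of these promoters (9.48%), against 7.71% of all 35116 promoters in the table. Of the 8 genes with the lowest YA-A375 to OA-A375 ratio, 4 had a matched promoter, and 3 of these held the letters. The promoters of those 3 are shown, with the matches in capitals, and that of LINC00460, which was higher in both secretome libraries than in control. They are LINC00460 (chr13:106376314-106376613, plus strand), LINC00704, also named MANCR (chr10:4678021-4678320, minus strand), RP13-463N16.6, also named LASTR (chr10:5596069-5596368, minus strand), and RP11-93G5.1, also named LINC02334 (chr13:37934198-37934497, plus strand), all on GRCh38.p14 and written 5′ to 3′ on the gene's strand.
LINC00460: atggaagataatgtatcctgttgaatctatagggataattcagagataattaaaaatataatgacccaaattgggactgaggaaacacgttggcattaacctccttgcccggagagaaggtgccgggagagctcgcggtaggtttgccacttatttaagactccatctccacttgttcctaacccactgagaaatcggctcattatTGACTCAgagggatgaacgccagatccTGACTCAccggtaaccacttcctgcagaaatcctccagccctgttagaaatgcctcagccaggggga
LINC00704: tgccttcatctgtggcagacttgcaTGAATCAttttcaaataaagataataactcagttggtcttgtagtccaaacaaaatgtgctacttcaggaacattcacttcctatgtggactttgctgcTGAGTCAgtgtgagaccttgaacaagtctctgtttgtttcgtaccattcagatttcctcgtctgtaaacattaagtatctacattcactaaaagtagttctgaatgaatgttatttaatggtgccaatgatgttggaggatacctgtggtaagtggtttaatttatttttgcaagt
RP13-463N16.6: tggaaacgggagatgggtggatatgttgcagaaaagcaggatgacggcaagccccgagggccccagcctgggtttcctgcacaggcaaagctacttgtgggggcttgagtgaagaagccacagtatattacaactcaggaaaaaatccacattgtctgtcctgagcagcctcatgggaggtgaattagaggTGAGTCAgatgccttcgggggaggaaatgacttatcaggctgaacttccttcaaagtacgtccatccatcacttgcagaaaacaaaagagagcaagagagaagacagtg
RP11-93G5.1: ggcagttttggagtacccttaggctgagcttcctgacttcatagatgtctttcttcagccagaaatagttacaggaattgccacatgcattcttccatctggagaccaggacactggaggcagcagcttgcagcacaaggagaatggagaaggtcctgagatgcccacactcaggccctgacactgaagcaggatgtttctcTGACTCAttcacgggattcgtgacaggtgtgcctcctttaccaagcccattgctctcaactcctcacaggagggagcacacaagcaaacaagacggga
In LINC00460 the matches began 44 and 17 bases before the start, in RP13-463N16.6 59 bases before it and in RP11-93G5.1 48 bases before it, while those of LINC00704 began 225 and 126 bases before it. RP13-463N16.6 and RP11-93G5.1 passed the minimum count only through OA-A375, their highest library. The genes were shown for their counts, so this is a description, and a match of letters is not a binding site. Other genes with a match went the other way. OLMALINC and LINC00346 were higher in YA-A375 than in OA-A375, at log2 fold changes of 0.50 and 0.56. Over the 11 genes with a match the median log2 fold change against control was -0.22 in YA-A375 and 0.13 in OA-A375.

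Other motifs were read in the same way. The cAMP response element TGACGTCA was in 2.59% of the 116 promoters against 1.85% of all, the E-box CACGTG in 9.48% against 7.26%, and the ATF4 motif TGATGNAA in 2.59% against 3.62%. The glucocorticoid motif GNACANNNTGTNC was in 0.862% against 0.39%, which is 1 promoter. The TATA box TATAAA was in 6.03% against 11.5%, and the NF-kB motif GGGANTTTCC was found in 0 of the 116 and in 0.558% of all. All of these were searched on both strands.

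Per library, all lincRNA genes took 0.397% of the counts in control, 0.447% in YA-A375 and 0.375% in OA-A375, with 95% Wilson intervals of 0.394 to 0.399, 0.444 to 0.45 and 0.372 to 0.378. The share was thus highest in YA-A375 by more than counting error, and lowest in OA-A375. The 229 genes made up most of it, with 0.32%, 0.362% and 0.302%. Part of the rise in YA-A375 was in MALAT1 and NEAT1, which together took 0.0176% in control, 0.0406% in YA-A375 and 0.0276% in OA-A375. Total counts were 21448195, 21306558 and 18089008, so the OA-A375 library was the shallowest, and counts were divided by size factors of 1.06, 1.06 and 0.891.

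The counts were concentrated in few genes. The highest alone, NORAD, took 19.5% of the counts of the 229, the first 5 took 37%, the first 10 took 46.8% and the first 50 took 72.2%. Only 21 genes had a mean raw count of at least 500 and 9 of at least 1000. At the lower edge, LINC01537 had exactly 50, LINC00383 and LINC01021 had 50.3 and RP11-93G5.1 and CTC-338M12.9 had 50.7, while RP11-440D17.3 had 49.7, SNHG9, LINC01560 and RP11-490M8.1 had 49.3 and the microRNA host MIR29A had 49.

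Levels of different genes were compared as normalised counts per kilobase of exon. On that scale NORAD stood first in every library, with 2681 in control, 2361 in YA-A375 and 2208 in OA-A375. NORAD is a cytoplasmic RNA that binds PUMILIO proteins and guards chromosome stability. LINC01029 had 1792, 1823 and 1839 per kilobase and LINC01419 had 1607, 1835 and 538.7, so these genes came next in control. SNHG8, a snoRNA host, had 940.3, 1020 and 851.3. MALAT1, long and therefore well counted, had only 252.5 per kilobase in control against 598 in YA-A375, and NEAT1 had 58.07 against 127.5.

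**Figure D1:**
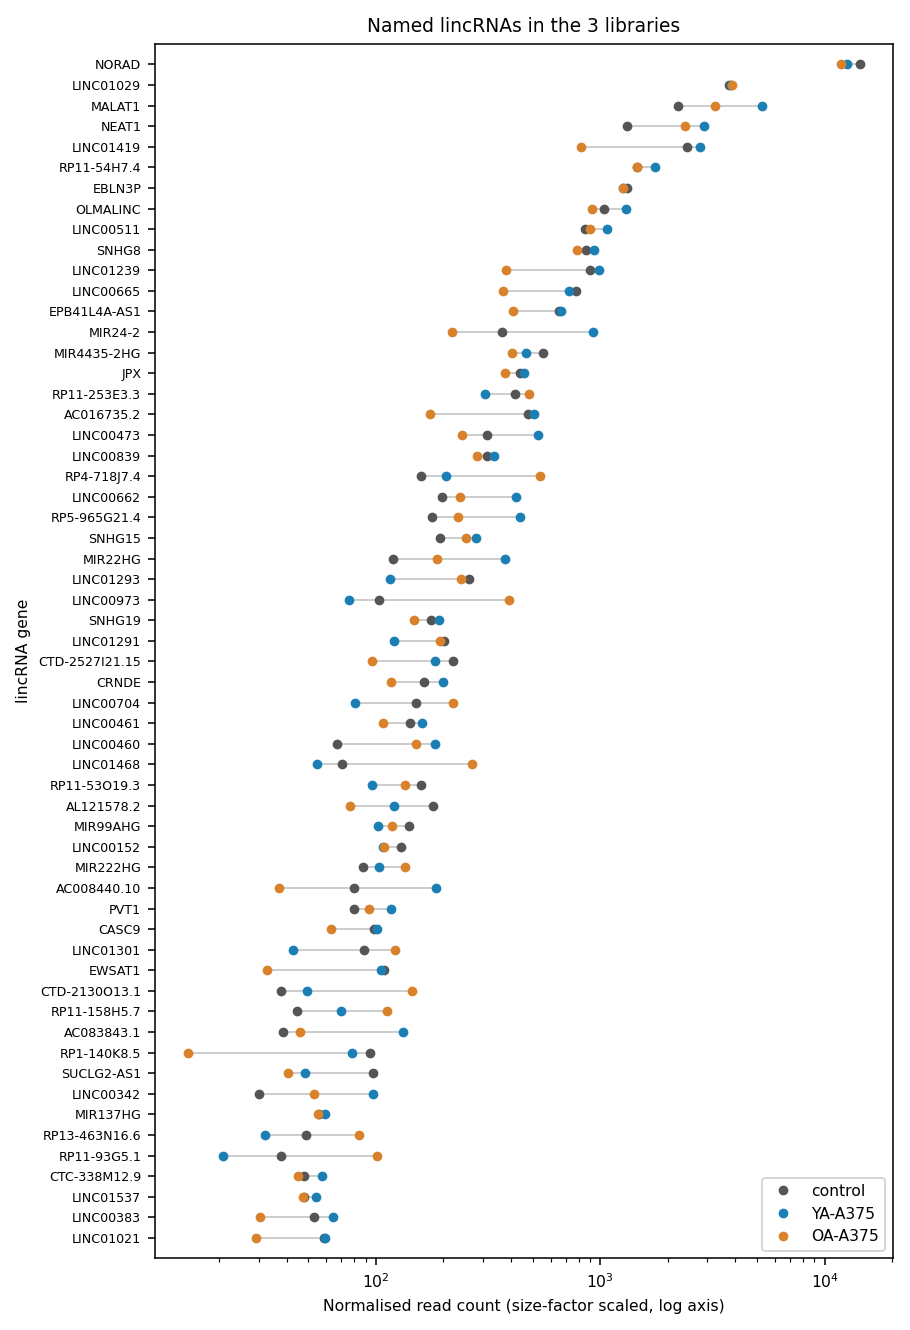
Size-factor normalised read counts (horizontal log axis) of 58 named lincRNA genes in control, YA-A375 and OA-A375, 1 point per library with a grey line from the lowest to the highest, and no error bars because there was 1 library per group. MALAT1, NEAT1 and MIR22HG have their YA-A375 point farthest right, LINC00973, LINC01468 and RP4-718J7.4 have OA-A375 farthest right, and LINC01419, LINC01239 and AC016735.2 have OA-A375 far to the left.

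Relative to control, the lincRNAs leaned upwards in YA-A375. At a fold of at least 1.2, the cutoff named in the study's methods, 66 of the 229 were higher (28.8%) and 35 lower (15.3%), while among all 12507 genes with a mean raw count of at least 50 the shares were 14.3% higher and 14.5% lower. The median log2 fold change was 0.06 for the lincRNAs and -0.02 for all genes. At 2-fold, 18 were higher (7.86%) against 1.18% of all genes, and 2 were lower (0.873%) against 0.544%. With the counting interval wholly beyond 1.2-fold, 33 were higher (14.4%) against 5.73%, and 6 were lower (2.62%) against 4.5%.

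In OA-A375 against control the lincRNAs spread both ways. At 1.2-fold 63 were higher (27.5%) and 69 lower (30.1%), against 19.3% and 19.4% of all genes. The median was -0.04, against 0.01. At 2-fold 12 were higher (5.24%) and 13 lower (5.68%), against 1.94% and 2.69%, and 27 were higher and 27 lower by an interval beyond 1.2-fold (11.8% each), against 9.15% and 9.14%.

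YA-A375 and OA-A375 were also compared directly. Here 92 were higher in YA-A375 (40.2%) and 46 lower (20.1%), against 20.2% and 20.1% of all genes, with a median of 0.13 against -0.02. At 2-fold 19 were higher (8.3%) and 9 lower (3.93%), against 2.94% and 2.27%. By the interval 45 were higher (19.7%) and 15 lower (6.55%), against 9.65% and 9.2%. The normalised count was highest in YA-A375 for 98 of the 229 genes (42.8%), where that held for 28.6% of all 12507, and it was lowest in OA-A375 for 108 (47.2%), against 35.6%. The 3 comparisons share libraries, so each set of counts is a reading of the same 3 libraries.

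**Figure D2:**
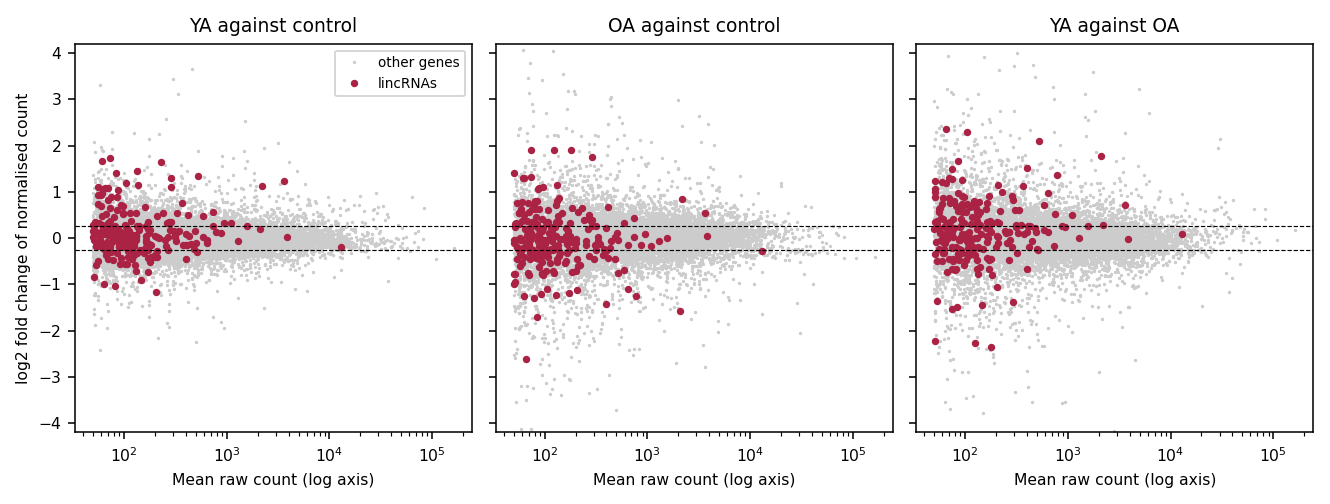
log2 fold change of normalised counts (vertical axis) against mean raw count (log axis) for 228 lincRNAs in red and all other genes with a mean raw count of at least 50 in grey, with dashed lines at 1.2-fold. Of the 21 lincRNAs with at least 500 counts, counting XIST, which is not drawn, 10 lie above the upper line and 1 below the lower in YA against control, and 4 and 6 in OA against control, where 15 other genes lie beyond the axis (7 in YA against OA).

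Many lincRNAs were thinly counted, so they were set beside protein-coding genes of the same count range. Between 50 and 100 counts, 32.4% of 102 lincRNAs were higher and 11.8% lower in YA-A375 than in control, against 27.7% and 27.8% of 870 coding genes. Between 100 and 200 counts the excess was absent, with 17.6% of 68 higher and 25% lower, against 22.5% in each direction. From 200 to 500 it was 28.9% of 38 and 13.2%, against 15.2% and 16.6%. At 500 or more, 10 of 21 lincRNAs were higher (47.6%) and 1 lower, against 9.2% and 9.33% of 7021 coding genes. The lean towards YA-A375 over control was thus seen in every count range but that from 100 to 200.

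The wider spread in OA-A375 against control was in large part shared by coding genes of like counts below 200. Between 50 and 100 counts 32.4% of the lincRNAs were higher and 32.4% lower, against 28.3% and 38.3% of the coding genes, and between 100 and 200 counts 22.1% and 26.5%, against 28.3% and 27.3%. From 200 to 500 the shares were 28.9% and 31.6%, against 21% and 22.1%, and at 500 or more 4 of 21 were higher and 6 lower (19% and 28.6%), against 15.2% and 13.7%. For YA-A375 against OA-A375 the shares at 50 to 100 counts were 43.1% higher and 21.6% lower, against 40.1% and 26.7%, and at 100 to 200 counts 32.4% and 27.9%, against 29.3% and 24.4%. From 200 to 500 they were 39.5% and 13.2%, against 23.7% and 21.4%, and at 500 or more 11 of 21 were higher (52.4%) and 0 lower, against 12.9% and 16.9%. Below 200 counts the lincRNAs were therefore near equally counted coding genes in both comparisons, and they stood further apart above it.

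Length went along with the lean in YA-A375. The genes were divided into 3 classes of near equal size by summed exon length, which ran from 338 to 28876 bases with cuts at 2039 and 3616. In the long class 32 of 75 were higher in YA-A375 than in control and 9 lower, in the middle class 16 and 12 of 74, and in the short class 16 and 14 of 75. Of the coding genes cut at the same lengths 13.4%, 12.8% and 12.2% were higher from long to short and 13%, 14.7% and 16.6% lower, where the lincRNAs had 12%, 16.2% and 18.7% lower. In YA-A375 against OA-A375 both kinds had more higher genes with length, 49.3%, 36.5% and 32% of the lincRNAs and 20.5%, 15.3% and 11.9% of the coding genes from long to short. Among lincRNAs with a mean of at least 100 counts the long class again had 18 of 45 higher and 7 lower. In OA-A375 against control each class had 21 higher. Whether length itself plays a part was not tested.

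**Figure D3:**
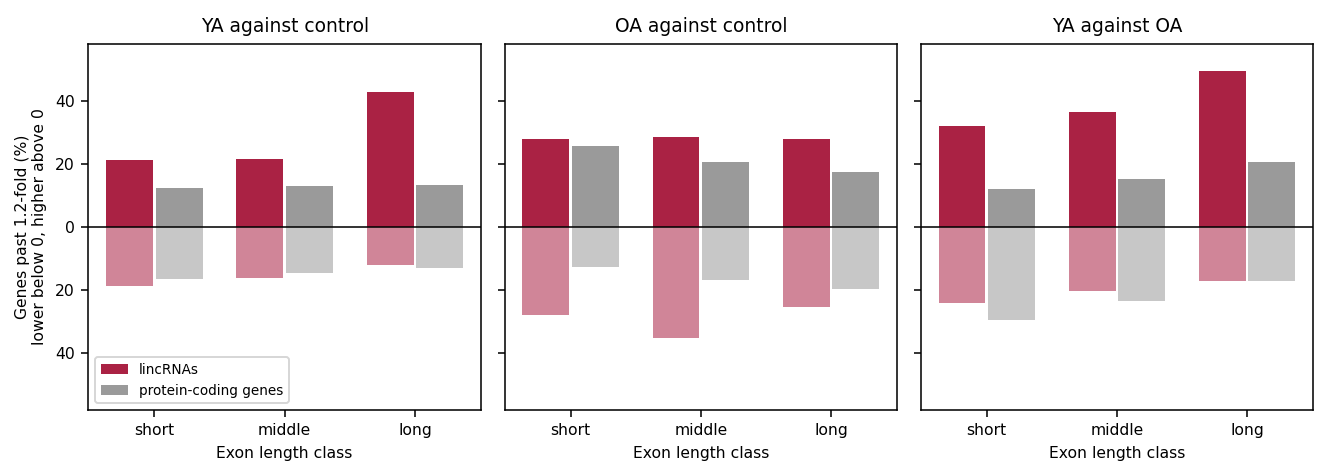
Percentage of genes at least 1.2-fold higher (above 0, full colour) or lower (below 0, pale) in each comparison, for lincRNAs (red) and protein-coding genes (grey) divided at the lincRNAs' exon length cuts of 2039 and 3616 bases. In YA against control the long lincRNAs reach 42.7% higher against 13.4% of the long coding genes, and in OA against control the lincRNA bars are near equal upwards at about 28%.

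Gene structure separated the lincRNAs less. In YA-A375 against control 29.8% of the 57 whose longest transcript has 1 exon were higher, and 28.1% of the 167 with several exons. Among the 98 that overlap no other annotated gene 26.5% were higher and 15.3% lower, so the lean was also there without overlapping genes. Other noncoding classes differed in YA-A375. Of 193 antisense genes 34.2% were higher and 14% lower, of 68 processed transcripts 42.6% and 5.88%, of 118 transcribed unprocessed pseudogenes 44.1% and 5.93%, and of 19 sense intronic genes 26.3% and 15.8%. The 30 genes of the class TEC, whose transcripts are still to be checked by experiment, showed no clear lean. Of them 23.3% were higher and 30% lower, with a median log2 fold change of 0.04, and 2 were higher and 0 lower at 2-fold. Processed pseudogenes, intron-less copies of mRNAs, went the other way, with 6.87% of 262 higher and 53.8% lower.

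MALAT1 and NEAT1, the long RNAs of nuclear speckles and paraspeckles, lie 52148 bases apart on chromosome 11 and were both higher in the secretome libraries. MALAT1 (ENSG00000251562.7, GRCh38 chr11:65497688-65506516, plus strand) had 2366 counts in control, 5586 in YA-A375 and 2883 in OA-A375. This is 2.37-fold control in YA-A375 (2.26 to 2.49) and 1.45-fold in OA-A375 (1.37 to 1.53). NEAT1 (ENSG00000245532.6, chr11:65422774-65445540, plus strand) had 1403, 3071 and 2116 counts, or 2.19-fold (2.06 to 2.34) and 1.8-fold (1.68 to 1.92). YA-A375 was the highest library for both and control the lowest. Together they took 0.0176% of counts in control, 0.0406% in YA-A375 and 0.0276% in OA-A375. Of 8 speckle proteins 1 was higher in YA-A375, SRRM2, a scaffold of speckles, at 1.58-fold, and 2 were lower, SRSF1 at 0.689-fold and SRSF2 at 0.824-fold. Of all genes 14.3% and 14.5% were higher and lower at 1.2-fold in YA-A375, so this count was near that of all genes. In OA-A375 0 of the 8 were higher and 0 lower, beside 19.3% and 19.4% of all genes.

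Among the other best counted genes the differences were smaller. NORAD (chr20:36045622-36050960, minus strand) had 15191, 13336 and 10502 counts, which is 0.88-fold control in YA-A375 (0.86 to 0.901) and 0.824-fold in OA-A375 (0.803 to 0.844). LINC01029 had 3982, 4040 and 3430 counts and EBLN3P, a bornavirus-derived pseudogene transcript, 1401, 1336 and 1125, and both intervals held 1 in each secretome library. RP11-54H7.4, now LINC03061, had 1547, 1857 and 1297 counts, 1.2-fold in YA-A375 (1.12 to 1.29). OLMALINC, an RNA first described in oligodendrocyte maturation, had 1097, 1378 and 819, and LINC00511 had 904, 1129 and 800. XIST also ranks among the first 10 by count, is included in every count of genes and is not described further.

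The microRNA host MIR22HG (ENSG00000186594.13, chr17:1711493-1717174, minus strand) was 3.16-fold control in YA-A375 (2.58 to 3.89) and 1.58-fold in OA-A375 (1.25 to 2.01). It had 126, 397 and 167 counts, so the libraries were ordered YA-A375, OA-A375 and control. The host of the miR-23a, miR-27a and miR-24 group shown above is listed as MIR24-2 and now named MIR23AHG (ENSG00000267519.4, chr19:13823880-13842928, minus strand). Its counts of 389, 983 and 194 put YA-A375 at 2.54-fold control (2.25 to 2.86) and OA-A375 at 0.594-fold (0.497 to 0.708), so YA-A375 was 4.27-fold OA-A375 (3.65 to 5). The gene model is 1 exon of 19049 bases and crosses ZSWIM4 on the opposite strand, and whether counting used strand is not given in the sources used here. The gene listed as MIR34A, a host of the p53-induced miR-34a (ENSG00000228526.5), had 54, 115 and 39 counts, or 2.14-fold (1.53 to 3.01) and 0.86-fold (0.555 to 1.32). It and the let-7i host were named after their values were seen, as hosts whose microRNAs are shown.

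Other hosts moved less or the other way. MIR222HG, host of miR-221 and miR-222, had 93, 109 and 120 counts and was 1.54-fold control in OA-A375 (1.16 to 2.04) and 1.18-fold in YA-A375 (0.883 to 1.57). The let-7i host RP11-631N16.2 had 56, 70 and 81 counts, 1.72-fold in OA-A375 (1.21 to 2.47). MIR99AHG, host of let-7c, had 149, 108 and 105, and MIR4435-2HG 587, 496 and 359, 0.729-fold in OA-A375 (0.637 to 0.832). MIR137HG stayed within counting error at 59, 63 and 49. Over the listed microRNA hosts of any biotype, 10 of 25 reached 50 counts, with 2 higher and 1 lower at 1.2-fold in YA-A375 and 4 higher and 2 lower in OA-A375, where all genes had 14.3% and 14.5% in YA-A375 and 19.3% and 19.4% in OA-A375. Of the 10, 5 are lincRNAs.

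The snoRNA hosts are genes whose exons have little known use while their introns give the guide RNAs that modify ribosomal RNA, and their transcripts often begin with a run of C and T like the mRNAs of ribosomal proteins. The 30 bases from 10 before the RefSeq start on GRCh38.p14 are shown for the 3 lincRNA hosts with a promoter in the table, with the longest such run in capitals.
SNHG8: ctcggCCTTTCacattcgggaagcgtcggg
SNHG19: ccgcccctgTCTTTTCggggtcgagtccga
EPB41L4A-AS1: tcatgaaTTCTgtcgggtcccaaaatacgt
The runs were 6, 7 and 4 bases long. A run of 8 or more was in 3 of 17 host windows (17.6%), against 12.7% of all promoters.

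Of the lincRNA hosts SNHG15, which carries SNORA9, differed most in YA-A375, with 204, 297 and 224 counts and 1.46-fold control (1.22 to 1.75), and it was 1.31-fold in OA-A375 (1.08 to 1.59). EPB41L4A-AS1, carrier of SNORA13, had 696, 710 and 365 counts and was 0.625-fold control in OA-A375 (0.549 to 0.71). SNHG8 had 921, 996 and 700 counts and SNHG19 187, 203 and 132, and their intervals against control lay at or across 1. Over the 19 hosts of any biotype with at least 50 counts, 9 were higher and 0 lower at 1.2-fold in YA-A375, with a median log2 fold change of 0.20, and 4 higher and 3 lower in OA-A375, with -0.03. Of all genes 14.3% and 14.5% were higher and lower in YA-A375, and 19.3% and 19.4% in OA-A375, so the count in OA-A375 was near that of all genes. Directly, 10 were higher in YA-A375 than in OA-A375 and 0 lower, beside 20.2% and 20.1% of all genes. The highest ratio in YA-A375 was that of SNHG12, an antisense gene with 220, 504 and 341 counts.

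Genes known to answer to stress included LINC00473, a cAMP- and CREB-induced RNA in many cells. It had 332 counts in control, 560 in YA-A375 and 215 in OA-A375, which is 1.69-fold (1.47 to 1.94) and 0.771-fold (0.647 to 0.919), so the secretome libraries lay on either side of control. LINC01021, also named PURPL, a p53-induced RNA, had 62, 63 and 26 counts, at 0.5-fold in OA-A375 (0.303 to 0.802). Of the 14 listed stress and inflammation genes, 6 of any biotype reached 50 counts. Of these 3 were higher and 0 lower in YA-A375, beside 14.3% and 14.5% of all genes. In OA-A375 2 were higher and 3 lower, beside 19.3% and 19.4%. The highest fold of the 6 was that of NKILA, an antisense gene with 16, 34 and 158 counts, 11.8-fold control in OA-A375 (7.02 to 21.1). Under the minimum, MIR3142HG and LUCAT1 were 4.37-fold (2.43 to 8.32) and 2.66-fold (1.34 to 5.57) in OA-A375, while the intervals of MIR210HG and TP53TG1 held 1. Of the 12 listed melanoma lncRNAs none was a lincRNA above the minimum. The only one of any biotype to reach it was UCA1, a processed transcript with 197, 117 and 922 counts, 0.596-fold control in YA-A375 (0.47 to 0.753) and 5.58-fold in OA-A375 (4.78 to 6.54). SAMMSON had 17, 25 and 28 counts and BANCR 10, 2 and 2.

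**Figure D4:**
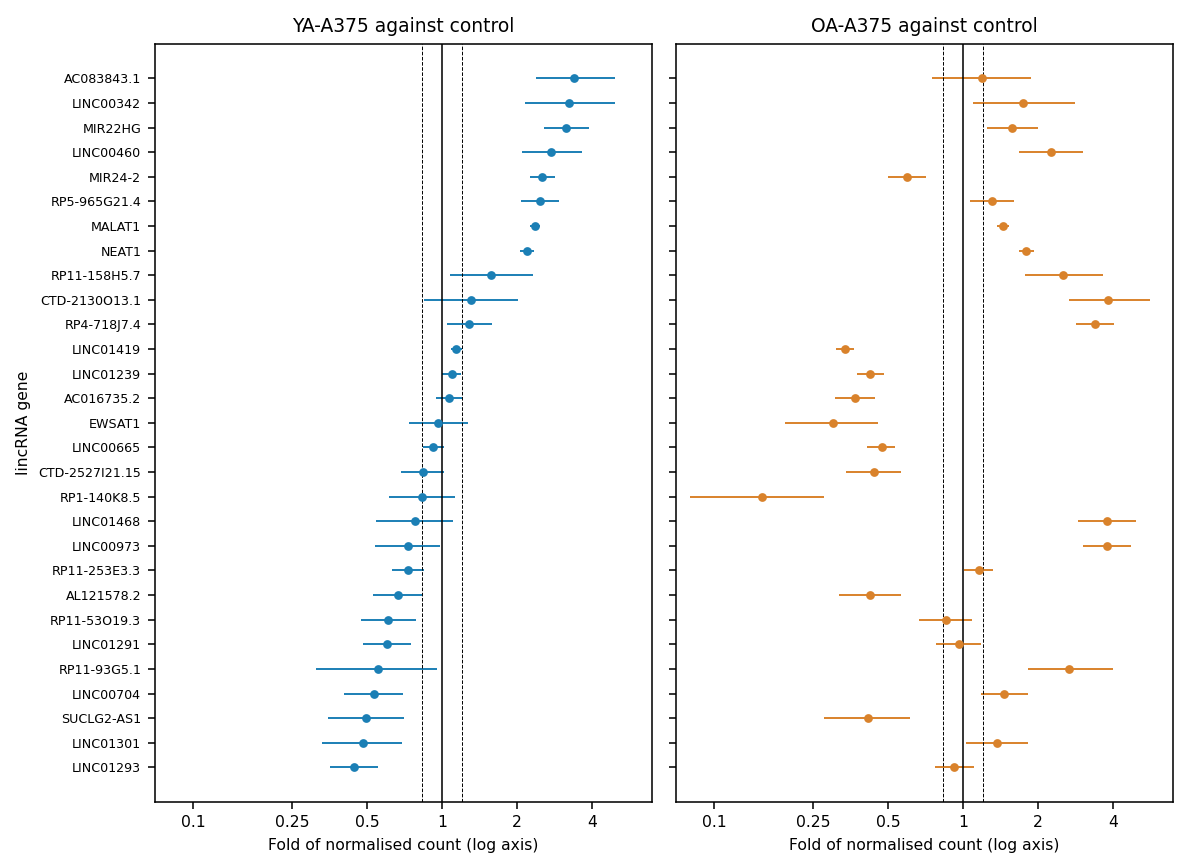
Fold of normalised counts against control (log axis) in YA-A375 (left) and OA-A375 (right) for the 29 lincRNAs with the most extreme intervals in either comparison, with 95% counting intervals as bars, a full line at 1 and dashed lines at 1.2-fold either way. AC083843.1, LINC00342 and MIR22HG stand highest in YA-A375, LINC00973, LINC01468 and CTD-2130O13.1 highest in OA-A375, and RP1-140K8.5 lowest in OA-A375 at 0.155.

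The other lincRNAs with the highest ratios in YA-A375 were mostly sparse. AC083843.1 had 41, 139 and 41 counts, 3.4-fold control in YA-A375 (2.38 to 4.94) and 1.19-fold in OA-A375 (0.754 to 1.88). LINC00342 had 32, 103 and 47 counts, 3.23-fold (2.15 to 4.96) and 1.75-fold (1.09 to 2.83). LINC00460, an RNA raised in several carcinomas whose promoter is shown above, had 71, 195 and 134, or 2.75-fold (2.09 to 3.67) and 2.25-fold (1.67 to 3.04), so it was higher in both secretome libraries. RP5-965G21.4 had 188, 463 and 207 counts, 2.47-fold (2.08 to 2.94) and 1.31-fold (1.07 to 1.61). LINC00662 had 209, 447 and 211 counts, 2.15-fold in YA-A375 (1.82 to 2.54). In all of these YA-A375 was the highest library. LINC00662 was 1.2-fold control in OA-A375 (0.989 to 1.46), so its interval there held 1, as did that of AC083843.1.

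Among the genes lowest in YA-A375, LINC01293 and LINC01291 lie close together on chromosome 2. LINC01293 (chr2:74940258-74942670, plus strand) had 276, 122 and 214 counts, 0.443-fold control in YA-A375 (0.355 to 0.551) and 0.924-fold in OA-A375 (0.769 to 1.11). LINC01291, which ends 1840 bases upstream on the same strand, had 213, 128 and 172, 0.603-fold in YA-A375 (0.48 to 0.754). Their nearest coding gene, POLE4, had 359, 324 and 275 counts, with log2 fold changes of only -0.14 and -0.13. SUCLG2-AS1 had 103, 51 and 36 counts and was lower in both secretome libraries, at 0.497-fold (0.348 to 0.701) and 0.416-fold (0.277 to 0.614). AL121578.2 was also lower in both, with 191, 127 and 68. LINC01301, LINC00704, RP11-53O19.3 and ENSG00000250899.3 were lower in YA-A375, at 0.48-fold, 0.533-fold, 0.609-fold and 0.731-fold, and of these LINC00704 and LINC01301 were at 1.47-fold and 1.37-fold in OA-A375.

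A different group was highest in OA-A375. LINC00973 (chr3:98981058-98983096, plus strand) had 110 counts in control, 80 in YA-A375 and 349 in OA-A375, 3.78-fold control in OA-A375 (3.04 to 4.73) and 0.729-fold in YA-A375 (0.54 to 0.982). LINC01468, now LNCAROD, named for its effect on DKK1, had 75, 58 and 238 counts, also 3.78-fold (2.9 to 4.97). RP4-718J7.4 had 169, 217 and 481, 3.39-fold (2.84 to 4.06), and CTD-2130O13.1, the host of miR-4527, had 40, 52 and 129, 3.84-fold (2.68 to 5.62). In each of them OA-A375 lay far above the other libraries. LINC00704 or MANCR, an RNA described in mitosis, had 160, 85 and 197 counts, RP13-463N16.6 or LASTR, which takes part in splicing control with SART3, had 52, 34 and 75, and RP11-93G5.1 had 40, 22 and 90. These last genes, whose promoters are shown above, were all lowest in YA-A375 and highest in OA-A375, at YA-A375 to OA-A375 ratios of 0.363 (0.278 to 0.471), 0.382 (0.247 to 0.58) and 0.206 (0.123 to 0.331). RP11-158H5.7 had 47, 74 and 100 counts, 2.54-fold in OA-A375, and shares its strand and position with ZSCAN30.

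Several lincRNAs, most of them well counted, were lower in OA-A375 while YA-A375 stayed near control. LINC01419 on chromosome 8 (chr8:83403758-83408900, plus strand) had 2594 counts in control, 2953 in YA-A375 and 730 in OA-A375, 0.335-fold control (0.308 to 0.364). LINC01239 had 955, 1041 and 340 counts, 0.424-fold (0.374 to 0.48), and LINC00665 had 831, 766 and 328, 0.47-fold (0.412 to 0.535). AC016735.2, now LINC01819, had 503, 535 and 156, 0.369-fold (0.307 to 0.443). EWSAT1, named from Ewing sarcoma, had 115, 111 and 29, 0.3-fold (0.193 to 0.455), and CTD-2527I21.15 had 233, 194 and 86, 0.44-fold (0.339 to 0.565). RP1-140K8.5 had the lowest ratio of the 229, with 100, 83 and 13 counts, 0.155-fold (0.0797 to 0.277). In all 7 the OA-A375 count stood apart from control and YA-A375. AC008440.10 was the exception to a level YA-A375, with 85, 196 and 33 counts, so that YA-A375 was 5-fold OA-A375 (3.44 to 7.47).

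Other lincRNAs known from cancer work were also counted. PVT1, which lies beside MYC, had 85, 123 and 83 counts, 1.45-fold control in YA-A375 (1.09 to 1.94), and MYC itself had 593, 641 and 482. CRNDE, named from colorectal neoplasia, had 174, 210 and 104, 0.712-fold in OA-A375 (0.553 to 0.913), and CASC9 had 104, 107 and 56, 0.641-fold (0.455 to 0.896). JPX, an activator of X inactivation, had 467, 482 and 336, LINC00461 had 150, 169 and 96, LINC00839 had 331, 354 and 252, and LINC00152, the cytoskeleton regulator CYTOR, had 137, 114 and 97. Of the 10 lincRNAs of this list with at least 50 counts, 4 were higher and 0 lower in YA-A375 at 1.2-fold, LINC00662 among those higher. In OA-A375 1 was higher and 4 lower. Over the 15 genes of any biotype, 6 were higher and 1 lower in YA-A375, and 3 higher and 5 lower in OA-A375. Of all genes 14.3% and 14.5% were higher and lower in YA-A375, and 19.3% and 19.4% in OA-A375.

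Each lincRNA was set beside the protein-coding gene with the nearest start, which reached 50 counts for 165 of the 224 genes with a position. In YA-A375 against control, 21 pairs were past 1.2-fold the same way, 2 opposite ways, and in 52 pairs only the lincRNA passed. In OA-A375 the numbers were 33, 10 and 44, and in YA-A375 against OA-A375 33, 9 and 55. In these comparisons 44.1%, 57.6% and 60.3% of the lincRNAs passed 1.2-fold either way. Of all coding genes with at least 50 counts 26.8%, 37.4% and 38.2% did. Whether pairs passed together, or the same way, more often than these shares give was not tested. Across the 165 pairs Pearson's r of the log2 fold changes was 0.33 in YA-A375 and 0.35 in OA-A375, which describes pairs that share libraries and is not evidence from replicates. LINC00973 and its neighbour DCBLD2 were both highest in OA-A375, DCBLD2 with 16124, 13296 and 30758 counts. RP11-93G5.1 and TRPC4 went the same way, TRPC4 with 57, 35 and 225, and CTD-2527I21.15 and FXYD3 were both lowest in OA-A375, FXYD3 with 1302, 1687 and 437. AC008440.10 and MYADM were both highest in YA-A375, MYADM with 4224, 7039 and 3117 counts. NEAT1 and FRMD8 went apart in OA-A375, at log2 fold changes of 0.84 and -0.62.

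Pairs with a start within 1000 bases of a coding gene's start on the other strand, called divergent pairs, were read apart. Their r was lower than in the other pairs against control and higher between the secretome libraries. There were only 39 such pairs, and whether these r values differ was not tested. Among 39 such lincRNAs 3 pairs were past 1.2-fold the same way in YA-A375, none opposite ways, and in 11 only the lincRNA passed, with r of 0.26 against 0.34 in the other pairs. In OA-A375 the numbers were 2, 1 and 14, with r of 0.19 against 0.36. In YA-A375 against OA-A375 they were 8, 1 and 6, with r of 0.43 against 0.37. SUCLG2-AS1 starts 83 bases from SUCLG2, which had 3829, 3222 and 2691 counts and log2 fold changes of -0.24 and -0.26, while the lincRNA had -0.99 and -1.24. SNHG19 and TRAF7, 340 bases apart, had 0.12 and 0.01 in YA-A375.

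**Figure D5:**
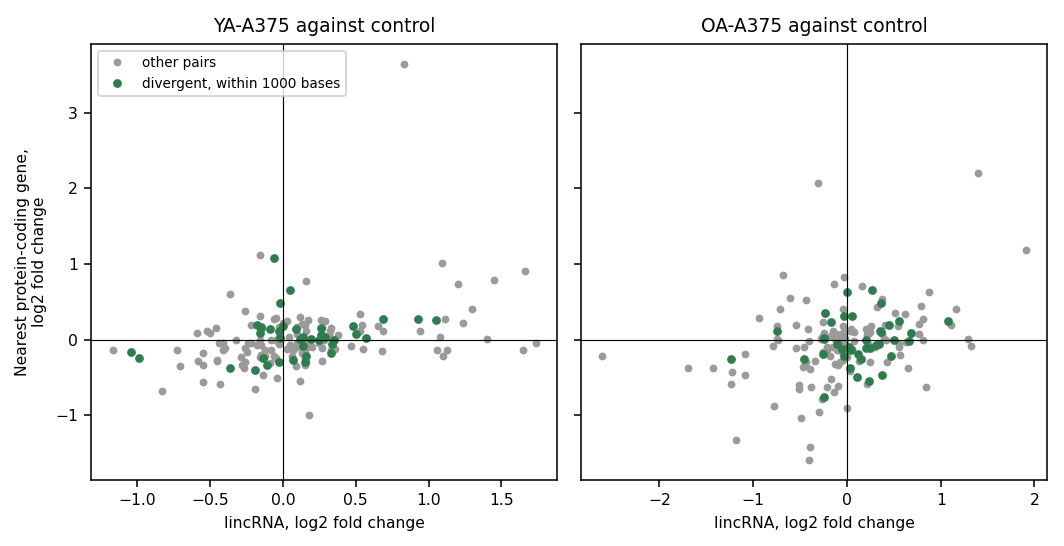
log2 fold change against control of each lincRNA (horizontal axis) and of its nearest protein-coding gene (vertical axis) in YA-A375 (left) and OA-A375 (right), with divergent pairs within 1000 bases in green and other pairs in grey. Most coding neighbours stay close to 0 while the lincRNAs spread. The 39 divergent pairs have r of 0.26 and 0.19 against 0.34 and 0.36 in the others, a difference that was not tested.

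Markers of the cell types the cultures could hold were read beside these results. Of 7 melanocyte lineage markers 2 (MITF and S100B) reached 50 counts and SOX10 was at 0 in all libraries, and MLANA had 22, 18 and 16 counts, so the A375 libraries carried few of the defining lineage markers. The list summed to normalised counts of 1971 in control, 1308 in YA-A375 and 1638 in OA-A375. Of 7 adipocyte markers only PLIN4 reached 50 counts, with 284, 579 and 321. It made up most of the normalised sums of 317.6, 628.5 and 450.1. CFD had 28, 35 and 40 counts and CIDEC 6, 31 and 36, so both were highest in OA-A375. FABP4 had 16, 15 and 2, PLIN1 2, 5 and 2, ADIPOQ 1, 0 and 0, and LEP was at 0. Of 8 stromal markers 4 reached 50 counts. These were PDGFRB with 515, 568 and 334, COL1A1 with 75, 117 and 84, LUM with 66, 101 and 58, and DCN with 13, 138 and 24. DCN is secreted by fibroblasts. PDGFRA, a fibroblast receptor, fell under the minimum with 76, 20 and 51. The sums were 706.7, 895 and 624.1, most of them PDGFRB. The adipocyte sum was highest in YA-A375 through PLIN4, and the stromal sum was also highest there, as were many lincRNAs. The part of these markers in the lincRNA differences was not tested.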

How the data were processed

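Per the labels, poly(A) RNA libraries of 3 A375 cultures were made with an Agilent SureSelect kit and sequenced on an Illumina NovaSeq. The authors deposited raw counts per gene, not normalized, with an Ensembl identifier, symbol and biotype. The submitters' processing notes name STAR 2.5.1b, R 3.6.1, featureCounts and the build hg38. The annotation release and use of strand are not given in the sources used here, so genes that overlap or lie antisense to another are uncertain. Total counts were 21448195 (control), 21306558 (YA) and 18089008 (OA). A count resolves small differences poorly near the minimum of 50, where a 95% interval of a fold spans about 0.755 to 1.67 (LINC01537).

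Normalised counts are the deposited counts over size factors estimated on all 3 libraries by DESeq2 1.42.0 (median of ratios) in R 4.3.3. Fold changes were log2((a + 1)/(b + 1)), a pseudocount of 1, over genes with a mean raw count of at least 50. The ratio has a 95% Clopper-Pearson interval and shares a 95% Wilson interval. With 1 library per group, the quasi-likelihood test of edgeR could not be run. The code was tested on simulated data. The study's cutoff of 1.2 was read as a linear fold.

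Named lincRNAs were the 10 with the highest mean count, per comparison the 8 with the highest lower and the 8 with the lowest upper interval bound, every one in a gene list, and those next to the minimum. A coding neighbour is named only beside its lincRNA, and a gene of another biotype only within its list, where it was picked after its values were seen, as were MIR34A and RP11-631N16.2. The members and lists were chosen with earlier results of these data known. The classes by count range, exon length and gene structure were chosen after seeing the data. The result of the list of paraspeckle proteins is not reported here.

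Positions came from GENCODE 29 (GRCh38), which matched 57433 of the 58037 identifiers and 224 of the 229 lincRNAs, of which 211 kept the type lincRNA. Exon length is the union of exons. Promoters and microRNAs came from RefSeq tables on GRCh38.p14. The software was matplotlib 3.10.9, scipy 1.17.1, pandas 2.3.3 and numpy 2.4.6 under Python 3.11.15. Alternatives were edgeR 4.0.16 TMM and total-count scaling, a pseudocount of 5, a minimum of 100, genes that overlap no other gene, a 2-fold cutoff, the counting interval, other filters on all genes, and the lincRNA share without NORAD.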

Additional observations from a re-analysis of the deposited data

How the results depend on the processing

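No paired analysis was possible because each group had 1 library, and for the same reason no library could be left out within a group. A pseudocount of 5, TMM and total-count scaling moved no member count by more than 1.5 times and reversed no median, and all 174 fold changes of named lincRNAs stayed inside their counting intervals under them. The other alternatives shrink the set or the rule by construction. Of the 127 members of at least 100 counts 33 lincRNAs were higher and 23 lower for YA over control. For OA over control 30 were higher and 36 lower, and for YA over OA 48 higher and 24 lower. The share of all genes at that minimum is not given here. The 98 members that overlap no other gene gave, in the same order, 26 higher and 15 lower (26.5% and 15.3%), 28 higher and 29 lower (28.6% and 29.6%), 43 higher and 19 lower (43.9% and 19.4%). All genes with at least 50 counts had 14.3% and 14.5%, 19.3% and 19.4%, and 20.2% and 20.1%. A 2-fold cutoff gave 18 higher and 2 lower, 12 higher and 13 lower, 19 higher and 9 lower. Intervals beyond 1.2-fold gave 33 higher and 6 lower, 27 each way, 45 higher and 15 lower. Without a filter the genes past 1.2-fold numbered 18967, 19235 and 18966, against 3603, 4838 and 5048. Without NORAD, the lincRNA with the highest count, lincRNAs took 0.326% of control, 0.384% of YA and 0.317% of OA counts. Depth limits the sparse lincRNAs most, whose intervals are widest, and differences between cultures could not be measured with 1 library per group.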
